A study of Mus musculus with 32 samples.

Results

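Thymocytes of mice with the P72 or the R72 form of p53 were compared 4 h after irradiation. The comparison covered 4 arrays of P72 and 4 of R72, 8 of the 32 arrays of the study, and 20548 genes. Per the labels, all mice were C57Bl/6, 6 weeks old, and the 4 h mice had received 5 Gy of gamma radiation. Each array held pooled thymocytes of 2 mice of 1 genotype, and the 4 arrays of a group came from 4 independent experiments. The untreated groups (0 h) and the groups taken 2 h after 5 Gy, each with 4 arrays of P72 and 4 of R72, served to date the differences seen at 4 h. A further set of p53+/+ and p53-/- mice had 2 untreated arrays and 1 array at each of 2 h and 4 h per genotype. It served for levels, for the filter on dim probes and for an alternative fit of all 32 arrays. How the P72 and R72 alleles were made, and whether their carriers share parents, is not given in the sources used here, so neither line can be set against its littermates. The series title names the question: how the polymorphism at this codon bears on NF-kB and on genes of immunity and inflammation.

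p53 is a transcription factor that DNA damage stabilises, and it induces genes of cell cycle arrest, DNA repair and apoptosis. The polymorphism behind the labels P72 and R72 puts a proline (P72) or an arginine (R72) into its proline-rich domain. Immature thymocytes that carry both CD4 and CD8 make up most of the thymus and are known to die through p53 within hours of gamma irradiation, with Bbc3 (Puma) as a main effector. NF-kB is a family of transcription factors that is held in the cytoplasm by inhibitors such as Nfkbia and that drives cytokine, chemokine and survival genes once released.

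The sequences of 4 promoters are shown because their genes bear on the question of the series or on its results: Casp4 and Cxcl1 as inflammatory genes, neither of them called at 4 h, Jun for the early response genes, and Asns for one of the smallest p-values of the comparison. Each is the 250 bases upstream of the first listed start in RefSeq (GRCm38.p6), given 5′ to 3′ on the strand of the gene. Capitals mark matches to an NF-kB motif (GGG and TTTCC with any 2 bases between) in Casp4 and Cxcl1, to TGACATCA (an AP-1-like motif) in Jun, and to TGATGNAA (an amino acid response motif) in Asns, each searched on both strands.
Casp4, chr9:5308599-5308848, plus strand: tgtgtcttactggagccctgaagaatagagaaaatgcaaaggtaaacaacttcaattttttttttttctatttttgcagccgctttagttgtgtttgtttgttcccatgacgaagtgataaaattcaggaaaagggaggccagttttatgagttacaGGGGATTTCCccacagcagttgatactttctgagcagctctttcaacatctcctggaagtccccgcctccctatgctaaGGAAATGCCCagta
Cxcl1, chr5:90890995-90891244, plus strand: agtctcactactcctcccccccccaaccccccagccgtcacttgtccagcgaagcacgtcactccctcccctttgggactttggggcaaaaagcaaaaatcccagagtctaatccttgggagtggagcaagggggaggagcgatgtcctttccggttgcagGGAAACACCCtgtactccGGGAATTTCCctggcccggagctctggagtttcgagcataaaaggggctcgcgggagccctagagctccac
Jun, chr4:95052223-95052472, minus strand: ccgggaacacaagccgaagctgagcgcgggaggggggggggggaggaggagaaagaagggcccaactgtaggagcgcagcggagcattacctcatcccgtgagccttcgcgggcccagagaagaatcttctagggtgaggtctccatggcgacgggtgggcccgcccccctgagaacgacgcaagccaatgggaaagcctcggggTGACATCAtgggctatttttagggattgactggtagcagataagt
Asns, chr6:7693210-7693459, minus strand: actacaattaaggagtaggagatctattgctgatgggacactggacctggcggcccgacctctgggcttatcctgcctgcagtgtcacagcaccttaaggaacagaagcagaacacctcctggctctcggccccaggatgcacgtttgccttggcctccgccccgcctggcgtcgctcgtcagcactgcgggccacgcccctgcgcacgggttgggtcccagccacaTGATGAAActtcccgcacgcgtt
The NF-kB motif begins 93 and 14 bases upstream of the start in Casp4, and 89 and 71 bases upstream in Cxcl1. The Jun match begins 45 and the Asns match 23 bases upstream. Among 32851 promoters of the same length, 1.41% hold the NF-kB motif, 2.93% the Jun motif and 3.45% the Asns motif. RefSeq lists 2 starts for Casp4. The matches do not overlap, and a match describes letters, not binding.

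The 8 arrays at 4 h were not all of equal depth. Between 60.3% and 68.8% of probes were well above background on the P72 arrays, and between 66.4% and 68.6% on the R72 arrays. P72 replicates 1, 2 and 4, at 60.3%, 62.3% and 65.7%, lay below every R72 array, and replicate 3, at 68.8%, above every one. The number of arrays limits the precision. Correlations between arrays of one genotype were 0.982 to 0.991 in P72 and 0.985 to 0.991 in R72, and those across genotypes 0.978 to 0.989. Labels describe each pool as 1 male and 1 female, but every P72 and R72 array showed the pattern of 1 sex. At 4 h, Xist, the RNA that coats the inactive X chromosome, was at -6.96, 5.39, -6.55 and 5.83 in P72 replicates 1 to 4 and at -4.64, 5.26, -3.73 and 5.56 in R72. Ddx3y, on the Y chromosome, ran the other way, at 1.52 to 1.88 in replicates 1 and 3 and at -7.96 to -5.19 in replicates 2 and 4. Sex was thus matched by replicate number between the genotypes. At 4 h no slide held both genotypes, so slide and genotype cannot be told apart among these 8 arrays. Scan batch 1 held replicates 1 and 2 of both genotypes, while replicates 3 and 4 of P72 and of R72 were scanned in separate batches. Differences are therefore also given for replicates 1 and 2 and for replicates 3 and 4.

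Of the 20548 genes, 257 (1.25%) differed between P72 and R72 at 4 h at an adjusted p under 0.05 (limma, Benjamini-Hochberg over all genes). P72 was higher for 137 (0.667%) and R72 for 120 (0.584%). Values of the 4 and 4 arrays did not overlap for 251 of the 257, beside 5.01% of all genes with every P72 array above every R72 array and 4.56% with the reverse. Of the called differences, 86 were at least 2-fold, 46 toward P72 and 40 toward R72. At an unadjusted p under 0.05 there were 2798 genes (13.6%). Same-numbered replicates of the genotypes deviated together at 4 h, and with the replicate number as a block over the 24 arrays 466 genes (2.27%) were called, 283 higher in P72 and 183 higher in R72. With the block on only the 8 arrays at 4 h the counts were 6 and 6. The count fell with batch terms: 65 and 75 genes were called with scan date as a fixed block, and 8 and 6 with slide as a fixed block, which draws on the other times because at 4 h no slide holds both genotypes. Within scan batch 1, with 2 arrays against 2, no gene passed limma's adjusted threshold and 2273 passed unadjusted. Centring each array on its median instead of its 75th percentile moved the median of all genes from 0.03 to -0.12 and the split to 54 higher in P72 and 229 higher in R72, or 19.1% toward P72. Single arrays mattered too. Leaving out R72 replicate 4 left 51 and 53 genes, P72 replicate 4 left 56 and 56, P72 replicate 2 left 66 and 73, and P72 replicate 3 left 69 and 66. R72 replicate 2 left 68 higher in R72, and P72 replicate 1 left 73.

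Most of these genes already pointed the same way before irradiation. Differences were called for 189 genes (0.92%) at 0 h, 67 higher in P72 (0.326%) and 122 higher in R72 (0.594%), and for 263 (1.28%) at 2 h, 134 (0.652%) and 129 (0.628%). At an unadjusted p under 0.05 the shares were 9.57% at 0 h and 16.9% at 2 h. Of the 257 genes called at 4 h, 66 were also called in the same direction at 0 h, which is 25.7% of the 4 h list and 34.9% of the 0 h list. At 2 h, 100 were called in the same direction, 38.9% of the 4 h list and 38% of the 2 h list, and 52 were called at all 3 times. Without regard to a threshold, 233 of the 257 had the same sign at 0 h and 251 at 2 h, while 24 had the opposite sign at 0 h. The share of all genes that kept their sign is not given here, so these counts stand without a baseline. The median size of the difference over the 257 genes was 0.82 (log2) at 4 h, the time at which they were chosen, 0.48 at 0 h and 0.55 at 2 h. No gene's difference at 4 h was shown to differ from that at 0 h: limma called 0 of 20548, with 1159 (5.64%) at an unadjusted p under 0.05 and a smallest adjusted p of 0.378. Against 2 h the counts were 0 and 695 (3.38%), with a smallest adjusted p of 0.297. The replicate block likewise called 0 in both tests, with 1372 and 982 unadjusted.

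**Figure D1:**
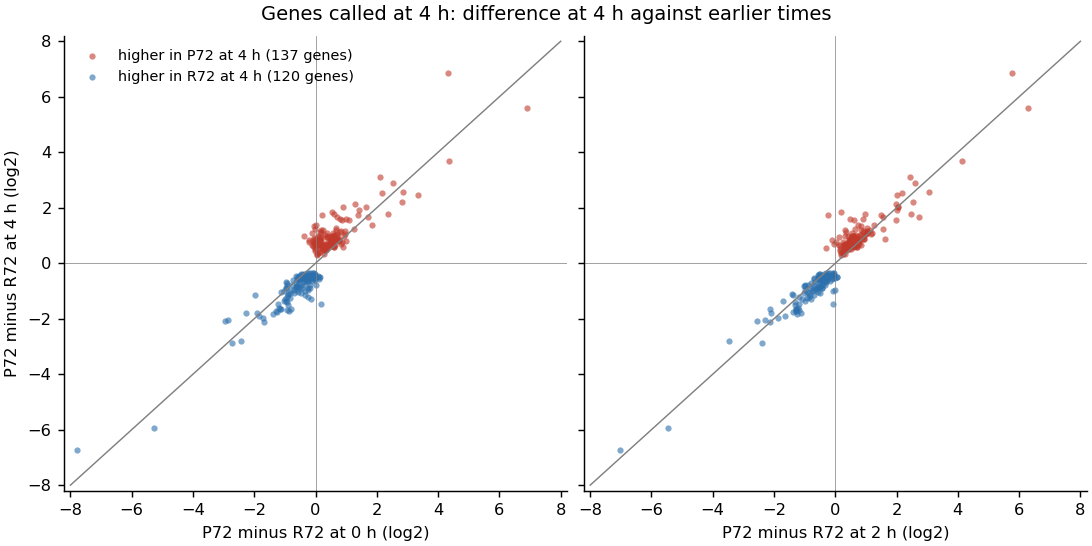
Difference between P72 and R72 at 4 h (vertical axis, log2) against the difference at 0 h (left) and at 2 h (right) for each of the 257 genes called at 4 h. Red points are the 137 genes higher in P72, blue points the 120 higher in R72, and the diagonal marks equal differences. Most points lie in the same-sign quadrants, 233 at 0 h and 251 at 2 h.

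The called genes were unevenly spread over the genome (probe coordinates of the files, build mm7). Chromosome 4 from 120 Mb to its end held 46 called genes among 555 tested (8.29%), 28 higher in P72 and 18 higher in R72, against 8 of 673 (1.19%) on the rest of the chromosome. In that stretch 13 genes were called at 0 h and 36 at 2 h. The densest window of 10 Mb there, 140 to 150 Mb, held 23 of 150 genes. Other dense windows were chromosome 6 at 0 to 10 Mb with 6 of 38, chromosome 12 at 20 to 30 Mb with 6 of 49 and at 10 to 20 Mb with 4 of 41, chromosome 7 at 10 to 20 Mb with 8 of 120, and chromosome 19 at 40 to 50 Mb with 8 of 146. Together 9 such windows, picked after their counts were seen for holding at least 4 called genes and 5% of those tested, contained 78 of 918 genes (8.5%), and the remaining genome 179 of 19630 (0.912%). The 20 Mb of chromosome 11 that contain Trp53, from 60 to 80 Mb, held 3 of 394 (0.761%). Genes of distal chromosome 4 differed in both directions. Padi3 and Padi2, neighbouring genes for enzymes that convert arginine to citrulline, were higher in P72 by 1.15 ± 0.24 (SE) and 0.75 ± 0.13, while Hdac1, a histone deacetylase, was lower by 1.13 ± 0.15 (limma adjusted p 0.0198, 0.00715 and 0.000561). All 3 were chosen after their values were seen.

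**Figure D2:**
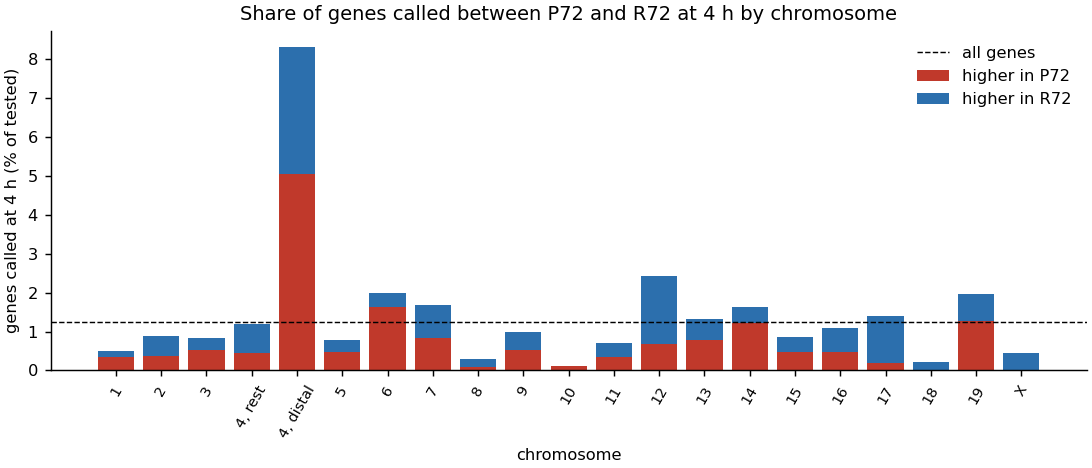
Share of tested genes called between P72 and R72 at 4 h (vertical axis, percent) by chromosome, with chromosome 4 split at 120 Mb and unplaced sequence left out. Stacked bars give the genes higher in P72 (red) and in R72 (blue), and the dashed line the share over all genes, 1.25%. Distal chromosome 4 stands at 8.29%.

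The largest differences toward P72 among genes with a proper symbol were those of Rab6b, a small GTPase of Golgi traffic, Prdm16, a zinc-finger regulator known from brown fat and blood stem cells, and the zinc-finger gene Zfp933. Levels throughout are log2 processed intensities on a scale where 0 is the 75th percentile of the array. Rab6b (chr9:102899312-102899371) stood at 2.62, 2.17, 3.00 and 2.71 on the P72 arrays and at -5.05, -3.49, -3.22 and -5.19 on the R72 arrays. Every P72 array was thus far above every R72 array, and the difference was 6.86 ± 0.95 (SE, n = 4 and 4, limma adjusted p 0.000642). It was 4.33 at 0 h and 5.78 at 2 h, and a second probe gave 6.10. Prdm16 (on distal chromosome 4, probe start 153309834) read -1.74, -1.98, -1.43 and -1.74 in P72 and -6.06, -5.41, -5.60 and -4.55 in R72, where 1 of 4 arrays was above background. The groups did not overlap and differed by 3.68 ± 0.45 (adjusted p 0.000165), after 4.37 at 0 h. Zfp933 (chr4:146812531-146812590) read 0.44, -0.12, 0.22 and 0.47 in P72 and -2.55, -2.81, -2.70 and -2.55 in R72, a difference of 2.90 ± 0.30 (adjusted p 1.42e-05). Its other 2 probes gave 0.00 and -0.58, so the probes of this gene disagree.

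Further genes higher in P72 by at least 2-fold included surface, secreted and signalling proteins. Ica1, an islet autoantigen on chromosome 6, was higher by 2.13 ± 0.35, Anxa6, a calcium-dependent membrane-binding annexin, by 1.93 ± 0.32 (its other probe gave -0.27), Gabrd, a GABA receptor subunit, by 1.79 ± 0.42, and Ly6d, a surface protein of lymphoid progenitors, by 1.78 ± 0.39. Depdc6 (Deptor, an inhibitor of mTOR) was higher by 1.68 ± 0.40, Trim30b by 1.59 ± 0.36, the macrophage scavenger receptor Cd163 by 1.54 ± 0.33, the transporter-like Mfsd13a by 1.38 ± 0.31, and the microfibril gene Mfap2 by 1.26 ± 0.24. Adjusted p for these genes ran from 0.00333 (Ica1 and Anxa6) to 0.041 (Depdc6). All of them were also higher in P72 at 0 h, by 0.60 (Gabrd) to 2.36 (Ly6d), and at 2 h, by 0.48 (Trim30b) to 2.74 (Depdc6).

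3 of the 15 genes with the largest P72 excess showed next to none at 0 h. Gdf15, a stress-induced cytokine of the TGF-beta family and a p53 target, stood at 1.73, 1.78, 1.70 and 2.41 in P72 and at 1.23, 0.85, 0.04 and 0.51 in R72. The groups did not overlap, P72 replicate 4 was the highest array, and the difference was 1.24 ± 0.27 (limma adjusted p 0.0252). It was -0.02 at 0 h and 0.65 at 2 h, 0.71 within replicates 1 and 2 and 1.78 within replicates 3 and 4. Slpi, a secreted inhibitor of neutrophil elastase, read 1.87, 1.5, 1.5 and 1.98 in P72 and 0.89, 0.59, -0.04 and -0.02 in R72. Its difference of 1.36 ± 0.29 (adjusted p 0.0192) followed 0.02 at 0 h and 0.73 at 2 h, and its other probe, above background on 1 P72 and 3 R72 arrays, gave -0.03. Lincr, a ubiquitin ligase gene also called Neurl3, was higher in P72 by 1.35 ± 0.28 (adjusted p 0.0162), after -0.05 at 0 h and 0.83 at 2 h. For none of these genes was the change of the difference from 0 h to 4 h past the threshold (adjusted p 0.697 for Gdf15 and Slpi, 0.647 for Lincr). The calls at 4 h were lost without R72 replicate 4, where adjusted p was 0.087 for Gdf15, 0.084 for Slpi and over 0.05 for Lincr, and Gdf15 and Slpi also lost theirs without P72 replicate 4 (0.102 and 0.0738) or R72 replicate 3 (0.0785 and 0.0616). Gdf15 also lost it without P72 replicate 2 (0.0543) or 3 (0.05), Slpi without P72 replicate 1 (0.0563), and Lincr without P72 replicate 3 or R72 replicate 2.

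**Figure D3:**
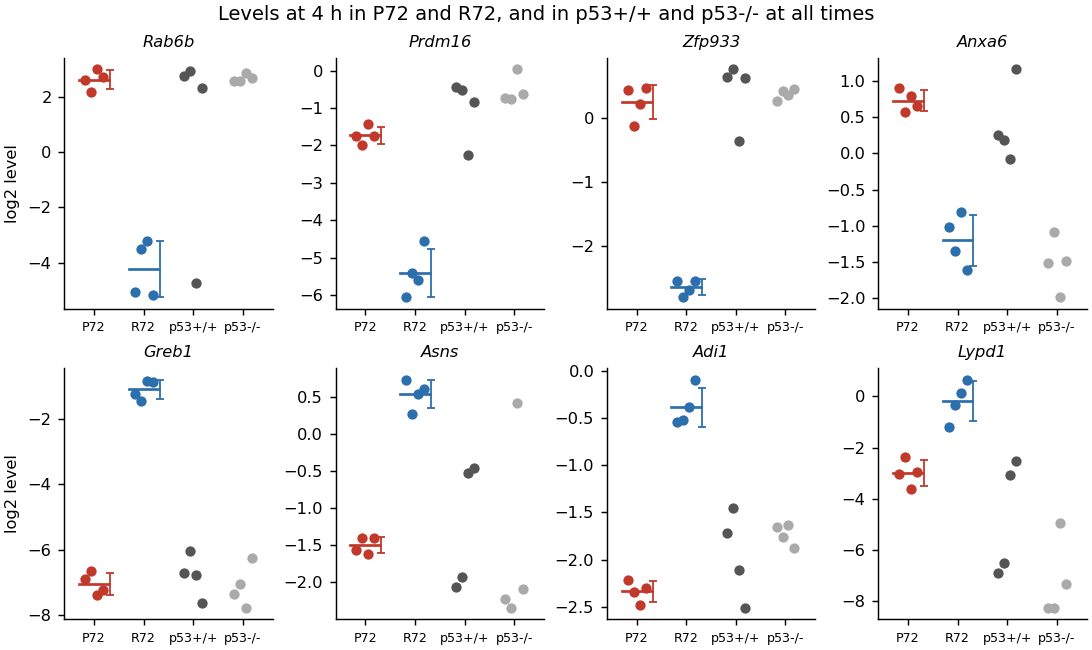
Level (log2, relative to the 75th percentile of the array) of 8 genes on the 4 P72 and 4 R72 arrays at 4 h, with each group's mean and SD as line and bar, and on the 4 p53+/+ and 4 p53-/- arrays of all times. Axes differ between genes. Rab6b, Prdm16, Zfp933 and Anxa6 were higher in P72, and Greb1, Asns, Adi1 and Lypd1 higher in R72, with no overlap in any of the 8.

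Toward R72 the largest difference among genes with a proper symbol and non-overlapping groups was that of Greb1, an oestrogen-induced gene, and the smallest p-values were those of Greb1, Asns, Pik3cg and Adi1. Greb1 (chr12:16726515-16726574) read -6.89, -6.65, -7.39 and -7.23 in P72, where no array was well above background, and -1.25, -1.47, -0.84 and -0.88 in R72. R72 was at least 14.3-fold higher, a bound taken from the dimmest probe still scored as above background on each P72 array (limma adjusted p 2.84e-07). Greb1 lay at -7.64 to -6.03 on the p53+/+ arrays and at -7.77 to -6.27 on the p53-/- arrays, the range of P72. Asns, which makes asparagine from aspartate and lies on chromosome 6 (chr6:7628080-7628139), read -1.56, -1.41, -1.62 and -1.41 in P72 and 0.73, 0.27, 0.54 and 0.60 in R72. The groups were well apart, by -2.04 ± 0.16 (adjusted p 3.3e-07), and had been so at 0 h (-2.85) and 2 h (-2.29). Adi1, an enzyme of the methionine salvage pathway on chromosome 12, read -2.22, -2.35, -2.48 and -2.30 in P72 and -0.54, -0.52, -0.38 and -0.09 in R72, a difference of -1.96 ± 0.17 (adjusted p 6.89e-07). Pik3cg, the catalytic gamma subunit of phosphoinositide 3-kinase, lies farther along chromosome 12 and differed by -1.21 ± 0.10 (adjusted p 4.47e-07), after -0.94 at 0 h and -1.17 at 2 h. It was chosen after its values were seen.

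The other genes of the R72 side were of mixed function. Kcnf1, a potassium channel subunit near Greb1, was at least 3.16-fold higher in R72, and Cfap300, a ciliary gene, at least 2.31-fold, both with no P72 array well above background. Lypd1 differed by -2.80 ± 0.57, Tgds by -2.13 ± 0.51, Rps6kl1 by -2.07 ± 0.25, the forkhead gene Foxb1 by -1.72 ± 0.35 and Bcas1 by -1.70 ± 0.31. Rab4a, a GTPase of endosome recycling, differed by -1.66 ± 0.28, Pkig, an inhibitor of protein kinase A, by -1.65 ± 0.25, Sertad4 by -1.38 ± 0.28, Bex1 by -1.36 ± 0.19 and the kinesin Kif1b by -1.30 ± 0.28. Adjusted p (limma) ran from 0.000165 (Rps6kl1) to 0.0427 (Tgds). All of them were also lower in P72 at 0 h and at 2 h, from -0.81 (Pkig) to -2.94 (Rps6kl1) at 0 h. Second probes were not all of one mind: those of Kcnf1 and Rps6kl1, mostly not above background, gave 0.51 and 0.07, that of Bcas1 gave -0.68, and the 3 of Kif1b gave -0.75, -1.01 and -1.49.

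H2-T3, H2-T23 and H2-Q7, class I genes of the major histocompatibility complex on chromosome 17, were called lower in P72. H2-T3 encodes the thymus leukaemia antigen, a class I-like protein whose presence on thymocytes is known to differ between inbred mouse strains. It read -5.58, -6.19, -4.68 and -7.30 in P72 and -4.76, 2.93, 1.96 and 3.1 in R72, so R72 replicate 1 lay among the P72 arrays and the groups overlapped. The difference was -6.74 ± 1.54 (limma adjusted p 0.0327), and -8.60 (adjusted p 0.00248) without R72 replicate 1. Leaving out any of the other 7 arrays lost the call, with adjusted p from 0.0536 to 0.131. All 12 P72 arrays over the 3 times lay between -7.30 and -4.68, and 10 of 12 R72 arrays between 1.96 and 3.16. The exception at 2 h was R72 replicate 2 at -5.07. The p53+/+ arrays read 2.33 to 3.80 and the p53-/- arrays -5.39 to -2.66, under the same strain label. H2-T3 was named after its values were seen because the overlap kept it from the naming rule. Differences in H2-T23 (-0.42 ± 0.10, adjusted p 0.0469), a class I-like ligand of natural killer receptors, and H2-Q7 (-0.39 ± 0.09, adjusted p 0.0327) were small but did not overlap, and H2-Q10 missed the threshold at -0.46 ± 0.11 (adjusted p 0.0547). It passed under median centring (0.0304), with all 32 arrays (0.0311), among genes above background on all 8 arrays (0.0426), with slide as a random block (0.0474) and without R72 replicate 1 (0.0496). Its other probes, all above background on every array at 4 h, gave 0.56 ± 0.29, -0.17 ± 0.27 and -0.05 ± 0.11, so the probes of H2-Q10 disagree. Of the 13 class I presentation genes tested, H2-T23 alone was called, beside 1.25% of all genes, and the array cannot be assumed to tell these near-identical genes apart.

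Trp53 itself did not differ beyond the spread of the arrays. It read -0.12, 0.46, 0.37 and 0.33 in P72 and 0.28, 0.42, 0.50 and 0.13 in R72, overlapping ranges with a difference of -0.07 ± 0.17 (limma adjusted p 0.89). A second, dimmer probe gave 0.25 ± 0.32. Whether the probes match the transcripts of both alleles is not known here, so they do not check the genotype. Among 20 apoptosis targets of p53 none was called in either direction, 10 lay above 0 and 10 below, and the median difference was 0.01, beside 0.03 over all genes. With 1.25% of all genes called, lists of this size are expected to hold few called genes or none. Such counts, here and below, therefore say little about a list. Bbc3, the Puma gene, read 6.52, 6.59, 6.60 and 6.81 in P72 and 6.49, 6.56, 6.27 and 6.60 in R72 (0.15 ± 0.09, adjusted p 0.483). Pmaip1, the Noxa gene, differed by 0.41 ± 0.19 (adjusted p 0.341), with -0.05 within replicates 1 and 2 and 0.86 within replicates 3 and 4. The death effector Bax and the death receptor Fas gave -0.06 ± 0.11 and -0.09 ± 0.09. The 4 members with the smallest p were Bid (-0.30, adjusted p 0.182), Tnfrsf10b (0.41, 0.257), Pidd1 (0.31, 0.315) and Pmaip1.

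Of the 24 targets of p53 in cell cycle arrest, repair and feedback 0 were called, beside 1.25% of all genes, and 9 lay above 0 with a median of -0.06. Cdkn1a, which encodes the cell cycle inhibitor p21, read 1.30, 1.57, 1.57 and 1.44 in P72 and 1.5, 1.33, 0.35 and 0.95 in R72. The ranges overlapped (0.44 ± 0.24, limma adjusted p 0.439), and the 2 lowest arrays were R72 replicates 3 and 4. Mdm2, the ubiquitin ligase that degrades p53, differed by -0.06 ± 0.12 and Ccng1, a cyclin, by -0.11 ± 0.11. Plk3, a stress kinase, had the smallest p of this list (0.43, adjusted p 0.163). In the group of metabolic and other targets, 1 of 17 was called, Gdf15, and 11 lay above 0 with a median of 0.11. Cpt1c, a carnitine palmitoyltransferase, and Dcxr, a carbonyl reductase, followed at 0.79 (adjusted p 0.153) and 0.50 (0.156). Eda2r, also in this list, was not well above background on any of the 8 arrays. Under median centring the medians of the 3 lists were -0.14, -0.21 and -0.04, beside -0.12 over all genes, so the sign of the first and the last turns with the scaling.

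No NF-kB target passed the threshold, although most lay on the P72 side. Of the 43 tested, 35 were above 0 beside 54.8% of all genes, the median was 0.22, and 10 were higher in P72 at an unadjusted p under 0.05. Over all genes 13.6% passed unadjusted in either direction, and 1.25% were called. The same list had a median of -0.12 at 0 h and 0.06 at 2 h. With the replicate block over the 24 arrays, 2 of the 43 were called, Cxcl1 and Tnf, but with the block on only the 8 arrays at 4 h their adjusted p was 0.106 and 0.111 (limma). Cxcl1, a neutrophil-attracting chemokine whose promoter is printed above, read -2.44, -3.11, -1.73 and -1.82 in P72 and -3.53, -3.94, -3.32 and -3.37 in R72. Groups did not overlap, and the difference of 1.26 ± 0.35 had an adjusted p of 0.0818 (limma), or 0.0125 with the block (± 0.25). It was 0.10 at 0 h and -0.07 at 2 h. Without P72 replicate 2, the lowest P72 array, it was 1.54 with an adjusted p of 0.045, and on the authors' deposited values it was 0.81 with an adjusted p of 0.0124. Tnf, the cytokine tumour necrosis factor, read -0.69, -1.12, -0.55 and -0.45 in P72 and -1.37, -1.55, -1.28 and -1.21 in R72, again without overlap. Its difference of 0.65 ± 0.19 had an adjusted p of 0.0958, or 0.0059 with the block, and was 0.55 within replicates 1 and 2 and 0.74 within replicates 3 and 4. Ier3 and Ccl4, an early response gene and a chemokine, followed at 0.60 ± 0.18 (adjusted p 0.105, or 0.0139 on the authors' deposited values) and 0.64 ± 0.20 (0.125), and Nfkbia, the inhibitor that NF-kB itself induces, gave 0.03 ± 0.10. Among 18 kinases and adaptors of the NF-kB pathway 0 were called, 7 lay above 0 and Tab1 had the smallest p (0.38 ± 0.12, adjusted p 0.161).

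Chemokines and the sensing genes of innate immunity showed the same pattern of small P72 excesses short of the threshold. The chemokine list shares at least Cxcl1 with the NF-kB targets, so these lists are not independent. 23 of 28 chemokines lay above 0 with a median of 0.39, after -0.38 at 0 h and 0.11 at 2 h, and 0 were called (1, Cxcl1, with the replicate block). Of 19 Toll-like receptors and sensing genes 16 lay above 0 with a median of 0.17. Tlr2, a receptor for bacterial lipoproteins, read 0.28, 0.09, 0.29 and 0.47 in P72 and 0.02, -0.35, -0.31 and -0.21 in R72 (0.49 ± 0.12, limma adjusted p 0.056, or 0.0444 with the block over 24 arrays and 0.134 with it on the 8 arrays at 4 h). Without R72 replicate 1 its adjusted p was 0.045, and it also passed with quantile normalization (0.03), on the authors' deposited values (0.0381), with all 32 arrays (0.0335) and among genes above background on all 8 arrays (0.0438). Cd180, a Toll-like receptor homologue of B cells and macrophages, gave 0.98 ± 0.27 (adjusted p 0.0792). Among 34 interferon-stimulated genes 17 lay above 0 and 17 below, none was called, and Igtp, an interferon-inducible GTPase, had the smallest p (0.37, adjusted p 0.0911, but 0.0254 with quantile normalization and 0.0245 on the authors' deposited values). The median of the interferon list was -0.01, and -0.16 under median centring.

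Inflammatory caspases and inflammasome genes were not called either, with 9 of 14 above 0, a median of 0.29 and -0.24 at 0 h. Casp4, the caspase that senses cytosolic lipopolysaccharide, read 1.23, 1.39, 1.62 and 1.64 in P72 and 1.14, 0.82, 0.54 and 0.72 in R72. All P72 arrays were above all R72 arrays, by a narrow margin at replicate 1, and the difference was 0.67 ± 0.23 (limma adjusted p 0.187). It was -0.28 at 0 h and 0.72 at 2 h, and 0.33 within replicates 1 and 2 against 1.00 within replicates 3 and 4. P72 replicate 1 was the lowest array at 0 h, at -1.83. The other P72 arrays read -1.13 to -0.41 there, and R72 -0.91 to -0.29. That array was also the lowest at 0 h for the chemokine Ccl19 (-2.33) and the epithelial gene Aire (-2.69). For Ccl4 (-1.95) it was the highest of P72. Its part in the 0 h medians of the lists was not tested. Casp1, which processes interleukin-1, differed by 0.47 ± 0.18 (adjusted p 0.242) with overlapping ranges. Nlrc4, an inflammasome sensor of bacterial flagellin, gave 1.05 ± 0.31 (adjusted p 0.109), but 2 P72 arrays and 1 R72 array were above background.

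These shifts of whole lists were not spread evenly over the replicates. Within replicates 1 and 2, which share a scan batch, 24 of 43 NF-kB targets lay above 0 with a median of 0.03, while within replicates 3 and 4 it was 37 with a median of 0.45. Chemokines gave 17 of 28 (0.06) and 26 (0.79), inflammasome genes 10 of 14 (0.14) and 11 (0.46), and Toll-like receptors 12 of 19 (0.09) and 18 (0.35). Macrophage markers moved alongside, from 9 of 17 above 0 with a median of 0.00 to all 17 with a median of 0.69. Over all genes the medians were -0.02 and 0.07. Within the scan batch that both genotypes shared, the medians of the NF-kB, chemokine and Toll-like receptor lists were thus near 0, while the inflammasome list kept a median of 0.14. With scan date as a fixed block over the 24 arrays the lists had 36 of 43 NF-kB targets above 0 (0.17), 23 of 28 chemokines (0.38), 16 of 19 Toll-like receptors (0.32), 9 of 14 inflammasome genes (0.41) and 14 of 17 macrophage markers (0.20). With slide as a fixed block the counts in the same order were 29 (0.09), 20 (0.25), 13 (0.14), 11 (0.42) and 15 (0.19). Over all genes the medians were 0.01 with scan date and 0.05 with slide. Median centring left 24 of 43 NF-kB targets above 0 (median 0.07), 20 of 28 chemokines (0.24), 12 of 19 Toll-like receptors (0.03) and 14 of 17 macrophage markers (0.25), beside a median of -0.12 over all genes. The median over all genes was 0.13 with dim probes kept and 0.01 among genes above background on all 8 arrays. Under another background correction (normexp) the NF-kB, chemokine and Toll-like receptor medians were 0.16, 0.20 and 0.10. Those of inflammasome genes and macrophage markers were 0.10 and 0.27, beside 0.03 over all genes. The part of dim probes in the list shifts was not tested.

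**Figure D4:**
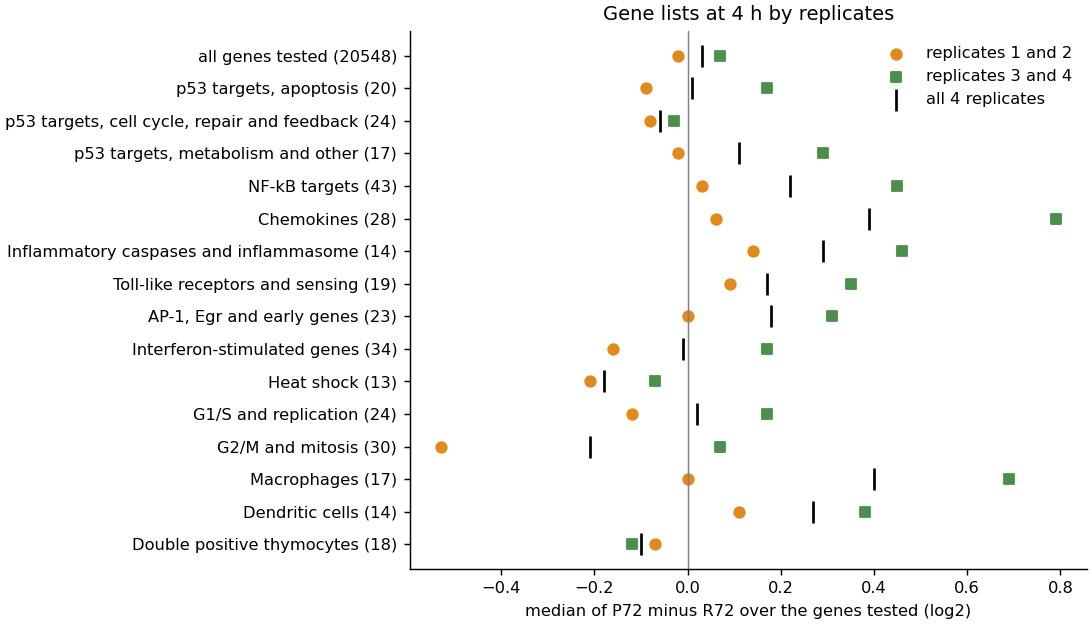
Median difference between P72 and R72 at 4 h (log2) over the genes of each list, with the number of genes tested in brackets, for all 4 replicates (black bars), for replicates 1 and 2 (orange) and for replicates 3 and 4 (green). The inflammatory lists and macrophage markers lie farther right for replicates 3 and 4 than for 1 and 2, and mitosis genes lie left of 0 for replicates 1 and 2 but not for 3 and 4.

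Jun was the called member of the early response genes. It encodes a subunit of the AP-1 transcription factor, and read -0.88, -0.87, -0.04 and -0.06 in P72 and -1.07, -1.08, -1.45 and -1.19 in R72. The groups did not overlap, but P72 replicates 1 and 2 lay close to R72. The difference was 0.74 ± 0.17 (limma adjusted p 0.0375), 0.20 within replicates 1 and 2 and 1.27 within replicates 3 and 4, after -0.03 at 0 h and 0.51 at 2 h. Its adjusted p was 0.129 without P72 replicate 3, 0.135 without P72 replicate 4, and 0.057, 0.0593, 0.106 and 0.0982 without R72 replicates 1 to 4. Of the 23 genes of this list 16 lay above 0 with a median of 0.18, and 12 with a median of 0.03 under median centring. Klf4 and Nr4a2, transcription factors of the early response, followed at 0.52 (adjusted p 0.137) and 0.46 (0.148).

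Genes of G2 and mitosis all lay below 0, 30 of 30, with a median of -0.21, and none was called (6 at an unadjusted p under 0.05). Over all genes 1.25% were called and 13.6% passed unadjusted. The kinase Aurka (-0.34, limma adjusted p 0.19), the kinetochore gene Cenpf (-0.44, 0.201) and the spindle gene Hmmr (-0.41, 0.211) had the smallest p. Within replicates 1 and 2 the median was -0.53 with 0 of 30 above 0, and within replicates 3 and 4 it was 0.07 with 21 of 30 above 0, so the shift sat in replicates 1 and 2. Genes of G1/S and replication had 0 of 24 called and a median of 0.02 (-0.13 under median centring). Heat shock genes had 11 of 13 below 0 and 1 called, the co-chaperone Dnaja1 at -0.57 ± 0.13 (adjusted p 0.0271), with all 3 of its probes negative. Hsph1, another chaperone, read 1.72, 1.80, 1.82 and 1.71 in P72 and 3.05, 3.21, 1.83 and 2.37 in R72 (-0.85 ± 0.27, adjusted p 0.132), with R72 replicates 1 and 2 the high arrays. Asns was the only called gene of 16 in the unfolded protein and integrated stress response, whose median was -0.04. Of 12 histone genes 1 was called, H1f2 at -0.43 ± 0.10 (adjusted p 0.0302), and H3c1 was at 0.64 (0.132) in the other direction. None of 14 glucocorticoid-responsive and 16 clock genes was called, with medians of -0.01 and 0.01.

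Several more genes were called at 4 h after smaller differences at 0 h, and the following were chosen after their values were seen. Thyn1, a nuclear protein first found in apoptotic thymocytes, read 5.42, 5.37, 5.76 and 5.90 in P72 and 4.97, 4.40, 5.02 and 4.54 in R72, a difference of 0.88 ± 0.17 (limma adjusted p 0.0144) that did not overlap. It was -0.03 at 0 h and 1.62 (adjusted p 2.43e-05) at 2 h, when the means were 5.94 in P72 and 4.32 in R72, against 4.19 and 4.22 at 0 h. Its other probe, far dimmer, gave -0.57 at 4 h. Fasl, the ligand of Fas, was higher in P72 by 0.79 ± 0.13 (adjusted p 0.00344), after 0.19 at 0 h. It kept its call without any 1 array, but not under median centring or with slide as a fixed block. Receptors of the tumour necrosis factor family on distal chromosome 4, Tnfrsf1b and Tnfrsf9, were higher by 0.58 ± 0.14 (adjusted p 0.0476) and 0.57 ± 0.13 (0.0299). F2, the prothrombin gene, was higher in P72 by 0.83 ± 0.12 (adjusted p 0.00115), and Ankrd6 lower by 0.79 ± 0.12 (0.00102). None of these differences was shown to have changed between 0 h and 4 h, the smallest adjusted p among them being 0.537 for F2.

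**Figure D5:**
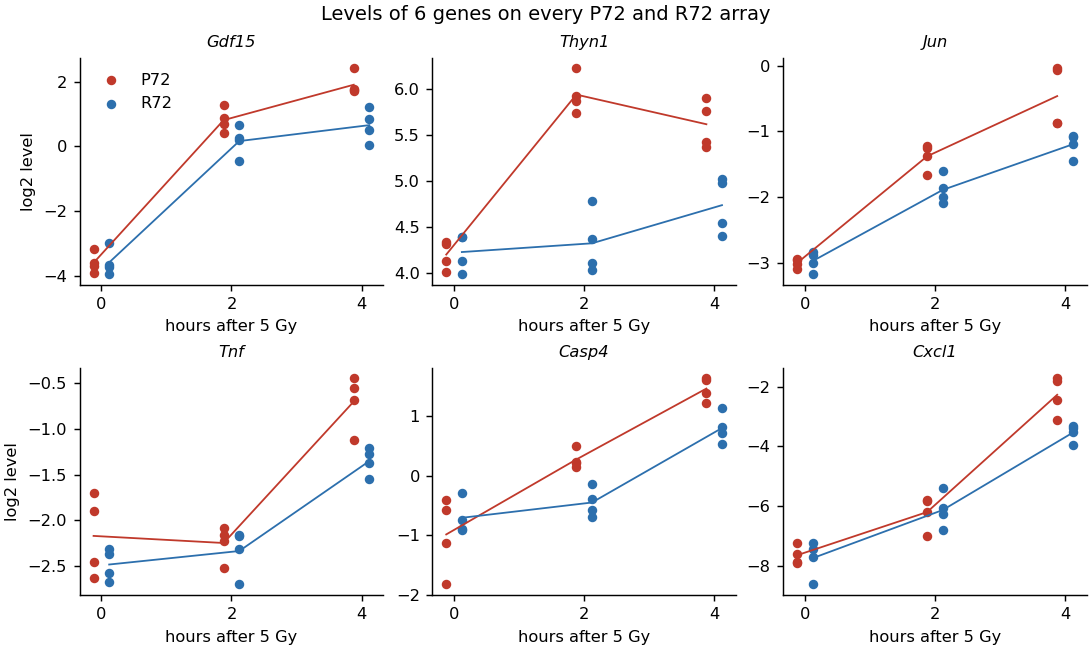
Level (log2, relative to the 75th percentile of the array) of 6 genes against hours after 5 Gy, 1 point per array, P72 in red and R72 in blue, with lines through the group means. Points are set slightly apart along the time axis. Gdf15, Thyn1 and Jun were called at 4 h, while Tnf, Casp4 and Cxcl1 were not, although their 4 h values did not overlap.

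Markers of cell types were checked because pooled thymocytes may hold other cells, and in such bulk samples fewer cells of a type and less RNA per cell cannot be told apart. Double positive thymocyte markers were strong, with overlapping summed levels of 10.46 to 10.54 in P72 and 10.49 to 10.61 in R72. Such sums rest mostly on the brightest genes. Of the 18, 13 lay below 0, with a median of -0.10, or -0.24 under median centring. Toward R72, 3 passed an unadjusted p under 0.05 (limma), beside 13.6% of all genes in either direction. The lowest was Rmnd5a at -0.42, with its other probes also below 0. Only 1 was called, beside 1.25% of all genes. It was the water channel gene Aqp11 at 0.71 ± 0.15 (limma adjusted p 0.0218), which had already differed by 0.82 at 0 h. None of 12 double negative markers was called, but their median was 0.35, and Il2ra, a receptor chain of early thymocytes and regulatory T cells, was called with the replicate block over 24 arrays (0.79 ± 0.18, adjusted p 0.0292) but not without it (0.148) or with it on the 8 arrays at 4 h (0.116). Among 20 markers of mature single positive cells 0 were called without the block and the median was 0.06, turning to -0.09 under median centring.

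All 17 macrophage markers tested lay above 0, with a median of 0.40 after 0.00 at 0 h, and Cd163 was the 1 called (limma adjusted p 0.0218). Cd163 read -3.05, -2.75, -3.42 and -2.72 in P72 and -4.35, -5.07, -4.13 and -4.56 in R72. Summed macrophage levels were 7.19 to 7.41 in P72 and 6.87 to 7.46 in R72, overlapping ranges, and Vsig4 was not well above background on any array. Of 13 B cell markers 1 was called, Jchain, the joining chain of secreted antibodies (0.78 ± 0.19, adjusted p 0.0473), and a further, Cd79b, with the replicate block over 24 arrays (0.51, adjusted p 0.0211, against 0.0505 without it and 0.119 with it on the 8 arrays at 4 h). The defining B cell genes Ebf1 and Pax5 were not well above background on any of the 8 arrays. Dendritic cell markers had 12 of 14 above 0 (median 0.27), those of fibroblasts and endothelium 12 of 13 (0.29), erythroid markers 6 of 6 (0.41), thymic epithelium 8 of 14 (0.06) and neutrophils 6 of 15 (-0.03), with 0 called in each. At 0 h the medians of these lists were -0.12, -0.04, 0.02, -0.72 and -0.98, and at 2 h 0.10, 0.27, 0.04, 0.19 and -0.57, so the neutrophil and epithelial medians were further below 0 at 0 h than at any later time. Erythroid, fibroblast and epithelial medians were -0.08, 0.16 and -0.30 within replicates 1 and 2 and 0.85, 0.67 and 0.49 within replicates 3 and 4, so they moved with the inflammatory lists, and their part in those shifts was not tested.

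Of 59 called genes followed one by one, most of them named above, 22 kept their call when any 1 of the 8 arrays was left out, among them Rab6b, Prdm16, Zfp933, Ica1, Anxa6, Greb1, Asns, Adi1, Pik3cg, Hdac1 and Fasl. The others lost it in at least 1 such fit, most often without R72 replicate 4 (33 of 59) or P72 replicate 4 (31 of 59). Depdc6, Jchain and Tnfrsf1b lost it in every one. Other processing took calls from the sturdier genes too. Prdm16, Ica1, Anxa6, Hdac1 and Fasl lost theirs under normexp background correction and with slide as a fixed block. Greb1 also lost its call under normexp, and Fasl under median centring. Normexp and the slide block each lost 52 of the 59, and scan batch 1 alone lost all 59. The labels speak of independent experiments with pooled mice, so the spread between arrays is that between pools.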

How the data were processed

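Thymocyte RNA was measured on 1-colour Agilent whole-genome arrays, 1 array per sample. The deposited scanner files hold each spot's intensity as written by Feature Extraction, 9.5.3 in the submitters' processing notes, with background removed per the file headers and no scaling between arrays. A table of log2 intensities deposited by the authors, whose normalization is not given in the sources used here, served as an alternative.

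Values were log2 processed intensity minus the array's 75th percentile. Control spots (1639) were left out, and outlier spots (0.223% of values) set to missing. A probe was kept if 4 or more of the 32 arrays had it well above background, with the brightest probe for each gene. Accessions gave a current symbol for 22704 probes and changed 5085. P72 and R72 were compared in limma 3.58.1 (R 4.3.3) over 24 arrays and 6 group means, two-sided, with Benjamini-Hochberg adjustment, 18 residual degrees of freedom and no block. The text names up to 15 genes in each direction by size among called genes with non-overlapping groups, signal above background on all 4 arrays of the higher group and a proper symbol (80 called names were identifiers only), 12 set genes, and up to 4 per list by p. Genes, lists and tests were chosen with earlier results of these data known.

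At 4 h, same-numbered P72 and R72 arrays deviated together (correlations 0.22, 0.54, 0.16 and 0.17), so the replicate number pairs them, and blocked values are given where they change a call. At 0 h (0.05, 0.02, 0.15 and 0.10) and 2 h (0.07, -0.07, 0.28 and -0.27) they did not all do so, although the block over 24 arrays assumes 1 effect at all times. On data simulated with independent noise for each gene and array, 49.3% of 1.5-fold, 68.7% of 2-fold and 92.4% of 4-fold changes were recovered over 20548 genes, with 8 false calls among 148. The simulation held no slide, scan batch or replicate effect, so these rates need not hold for the real arrays. Figures were drawn with matplotlib 3.10.9 under Python 3.11.15.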

Additional observations from a re-analysis of the deposited data

Results flagged for a closer look

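The 4 arrays of each group were checked at 4 h for a single array far from the other 3 (gap over range above 0.829), for 97 genes and so 194 groups. 9 groups held one, where chance gives about 1 in 20. In the P72 group, Pkig was at 1.85 in replicate 4 against 3.17 to 3.27 in the others, Nlrc4 at -4.37 in replicate 4 against -4.87 to -4.84, Gdf15 at 2.41 in replicate 4 against 1.70 to 1.78, Bmp7 at 0.65 in replicate 1 against 0.41 to 0.44, and Rab4a at -1.48 in replicate 2 against -3.16 to -2.89. Among R72 arrays, Itgb3 was at 0.04 in replicate 4 against 0.58 to 0.61, Depdc6 at -3.22 in replicate 4 against -1.90 to -1.83, Fas at 4.98 in replicate 4 against 4.65 to 4.70, and H2-T3 at -4.76 in replicate 1 against 1.96 to 3.1.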

How the results depend on the processing

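Counts at 4 h were 137 genes higher in P72 and 120 higher in R72. Normexp background correction gave 10 and 8, quantile normalization 207 and 260, median centring 54 and 229, the authors' deposited values 253 and 243, no filter on dim probes 83 and 77, and a fit of only the 8 arrays at 4 h 55 and 45. The replicate block gave 283 and 183, and on only the 8 arrays, an alternative chosen after seeing the data, 6 and 6. Slide as a fixed block gave 8 and 6, scan date 65 and 75, and scan batch 1 alone 0 and 0. Leaving out 1 array gave 51 to 118 and 53 to 93. Under normexp the second replicates stood apart (correlation with the processed signal 0.938 in P72 and 0.917 in R72, others 0.968 to 0.974); the causes of these changes were not tested. Calls at 0 h were 189, 108 without the filter and 288 with the replicate block, and at 2 h 263, 173 and 531. List members called were 9, 4 without the filter and 14 with the block. All 257 genes kept their direction in each alternative that tested them; the non-overlap of most groups fixes this in the leave-one-out fits and within scan batch 1. Some uncalled genes changed sign: Trp53 ranged from -0.14 to 0.06 when 1 array was left out, Bax from -0.12 to 0.01 and Nfkbia from -0.05 to 0.10. With slide as a fixed block Bax was 0.02, Fas 0.07, Ccng1 0.02 and Nfkbia -0.03. Bax was 0.06 with scan date as a block. Within scan batch 1 Pmaip1 was -0.05, Bax 0.04 and Nfkbia -0.07, and under median centring Nfkbia was -0.12. The block over 24 arrays changed no other call of a followed gene than Cd79b, Cxcl1, Il2ra, Tlr2 and Tnf, gained, and Entpd1, lost, while that on 8 arrays gained none and lost 52 of 59. Signal over background limits Greb1, Kcnf1 and Cfap300 to lower bounds.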
